A study of Mus musculus with 8 samples.

Results

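The insulin-like growth factor (IGF) axis was examined in muscle stem cells of old and young mice through 10 genes, taken by symbol from a table of 24630 genes. They were the ligands Igf1 and Igf2, the receptors Igf1r and Igf2r, and the 6 binding proteins Igfbp2, Igfbp3, Igfbp4, Igfbp5, Igfbp6 and Igfbp7. Of these 10 genes, 8 averaged at least 5 RPKM (reads per kilobase of exon per M reads, where M is the SI prefix mega) over all libraries and were among the 5703 genes of the table that entered the main test. Igfbp3 and Igfbp2 lay below that level. The old group was 4 male C57BL/6 mice aged 22 months and the young group was 4 male C57BL/6 mice aged 4 months, all without a transgene or treatment in the labels. Each library held the limb muscle stem cells of 1 animal, sorted by flow cytometry as CD45- CD31- Sca1- VCAM+ and used without culture. The study's question, as its title and design give it, was how quiescent muscle stem cells differ between these ages.

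IGF1 and IGF2 are secreted peptides that act mainly through the IGF1 receptor, a tyrosine kinase that signals through IRS adaptors to PI3 kinase, AKT and mTOR and through RAS to MAP kinases. The IGF2 receptor binds IGF2 and carries it to lysosomes, so it acts as a clearance receptor. The IGF-binding proteins hold the ligands outside cells, prolong their half-lives and limit or enhance their access to the receptor, and IGFBP7 differs from the rest by its low affinity for IGFs. In skeletal muscle, IGF1 promotes growth of fibres and proliferation and differentiation of myoblasts, and IGF2 is an autocrine factor of myoblast differentiation in cultured mouse cells.

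Relative to young cells, old cells had less Igf1 and Igfbp3 transcript under both ways of scaling the libraries. Igfbp3 levels overlapped between the ages on both. Among alternatives of processing or left-out libraries, the call in deposited values was lost in 2 of 15 for Igf1 and in 7 of 14 for Igfbp3. Old cells had more Igf2, Igf1r, Igfbp5 and Igfbp6 in the deposited values. Once each library was scaled by its own reads in genes, none of these passed the main test, and Igf2, at the threshold there, passed in the wider test of genes averaging at least 1 RPKM that Igfbp3 was taken from (limma adjusted p = 0.0455). Within a library, where no library size enters, Igf1 averaged 0.440 ± 0.168 of the Igf2 level in old cells and 1.44 ± 0.0885 of it in young cells (SD, n = 4 each). Per length, Igf2 was thus the more abundant ligand transcript in every old library and Igf1 in every young one. Igfbp3 made up 1.85 ± 0.945% of the summed binding protein RPKM in old cells and 6.48 ± 1.67% in young cells, without overlap.

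The promoters are shown for the genes that fell on both scales, Igf1 and Igfbp3, and for Igfbp6, which had the largest log2 fold change among the 8 tested members on the deposited scale. The windows are RefSeq promoters on GRCm38.p6, running from 250 bases before to 50 bases after an annotated start, on the strand of the gene and 5′ to 3′. They lie at chr10:87860861-87861160 on the + strand for Igf1, at chr11:7213874-7214173 on the - strand for Igfbp3 and at chr15:102143936-102144235 on the + strand for Igfbp6. The Igfbp6 window ends before the start of that gene in the GENCODE M21 annotation, at 102144362, so it does not surround that start. The Igf1 window lies inside that gene, past its GENCODE M21 start at 87858265, and does not surround that start either. Capitals mark matches to the searched motifs, which were the TATA box motif TATAAA, the forkhead core GTAAACA, the GC box GGGCGG, the MyoD-type E-box CAGCTG and the AP-1 site TGANTCA, on both strands and with no motif nested in another.
Igf1: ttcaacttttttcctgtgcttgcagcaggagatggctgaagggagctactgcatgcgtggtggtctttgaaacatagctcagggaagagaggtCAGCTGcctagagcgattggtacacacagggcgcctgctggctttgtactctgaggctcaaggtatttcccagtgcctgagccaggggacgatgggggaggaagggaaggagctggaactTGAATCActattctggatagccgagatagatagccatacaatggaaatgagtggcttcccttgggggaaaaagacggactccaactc
Igfbp3: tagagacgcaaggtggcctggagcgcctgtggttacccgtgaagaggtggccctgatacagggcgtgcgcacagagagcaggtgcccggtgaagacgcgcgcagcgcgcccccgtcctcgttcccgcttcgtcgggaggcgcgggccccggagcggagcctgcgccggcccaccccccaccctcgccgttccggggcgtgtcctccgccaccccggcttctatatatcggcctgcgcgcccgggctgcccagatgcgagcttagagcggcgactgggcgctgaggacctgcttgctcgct
Igfbp6: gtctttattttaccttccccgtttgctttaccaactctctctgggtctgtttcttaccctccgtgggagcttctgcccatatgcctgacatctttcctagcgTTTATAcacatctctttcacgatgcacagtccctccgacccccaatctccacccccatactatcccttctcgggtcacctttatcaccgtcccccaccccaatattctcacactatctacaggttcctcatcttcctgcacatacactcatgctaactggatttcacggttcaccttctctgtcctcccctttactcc
In the Igf1 window, CAGCTG lay 157 bases and TGAATCA 37 bases before the RefSeq start. Of its bases, 52.3% were G or C, against a median of 52.7% over all 32851 promoters. The Igfbp3 window had 71.7% G or C, 37 CpG dinucleotides and none of the 5 motifs. The Igfbp6 window had 49.7% G or C. It had 1 match to TATAAA, read on the other strand as TTTATA, 148 bases before the RefSeq start. All 10 genes matched a promoter, giving 14 windows because Igf2 had 4 and Igfbp2 had 2. GGGCGG was in 6 of the 14 windows, TATAAA in 2, TGANTCA in 2, CAGCTG in 1 and GTAAACA in 0. Of all promoters of this length, 35.7% held GGGCGG, 13.6% TATAAA, 7.81% TGANTCA, 16.3% CAGCTG and 3.65% GTAAACA. A match is a description of the letters in the window and no evidence of binding.

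The libraries of the ages differed in depth and in scaling. Reads in genes, recovered from the RPKM values, numbered 20.1 to 24.9 M in old libraries and 1.91 to 6.56 M in young ones. The library sizes behind the deposited RPKM were 0.678 to 0.849 times these reads in old libraries and 1.14 to 1.64 times in young ones, so the deposited scale places old values higher than scaling by reads in genes does. Each tested member is therefore given on both scales, the deposited one and one of library totals. On library totals the library size is replaced by the reads in genes, and a difference is a difference in the share of reads. Marker calls are given on library totals alone. Over all tested genes the log2 fold change, old over young, had a median of 0.64 in deposited values and -0.01 with library totals. Over the 8 tested members the medians were 0.54 and -0.08. Depth and age cannot be told apart, since all 4 young libraries were the shallower ones. For a transcript of 1 kb, 3 reads were worth 0.157 to 0.181 RPKM in old libraries and 0.403 to 0.959 RPKM in young ones. This floor covers counting error alone, as amplified reads do not stand for separate molecules. In bulk samples, fewer cells of a type and less RNA per cell cannot be told apart.

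With limma on log2(RPKM + 1) and an adjusted p under 0.05 over all tested genes, 4 of the 8 tested members were higher and 1 was lower in old cells on the deposited scale. Of all 5703 genes, 68.1% were called higher and 1.12% lower there. On library totals limma called 0 members higher and 1 lower and left 7 uncalled, against 12.3% of all genes called higher and 12.5% lower. At an unadjusted p under 0.05, Igf2 alone was higher on library totals, and limma-voom on the recovered reads also called 0 of the 8 higher. No overlap between the 4 old and the 4 young libraries was seen in 5 members with higher and 1 with lower old values on the deposited scale, where 61.2% and 0.473% of all genes separated in those directions. On library totals, Igf2 separated with higher and Igf1 with lower old values, as did 13.8% and 13.3% of all genes. The share of members called higher on the deposited scale was thus no larger than that of all genes, whereas Igf1 was lower on a scale where few genes were.

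**Figure D1:**
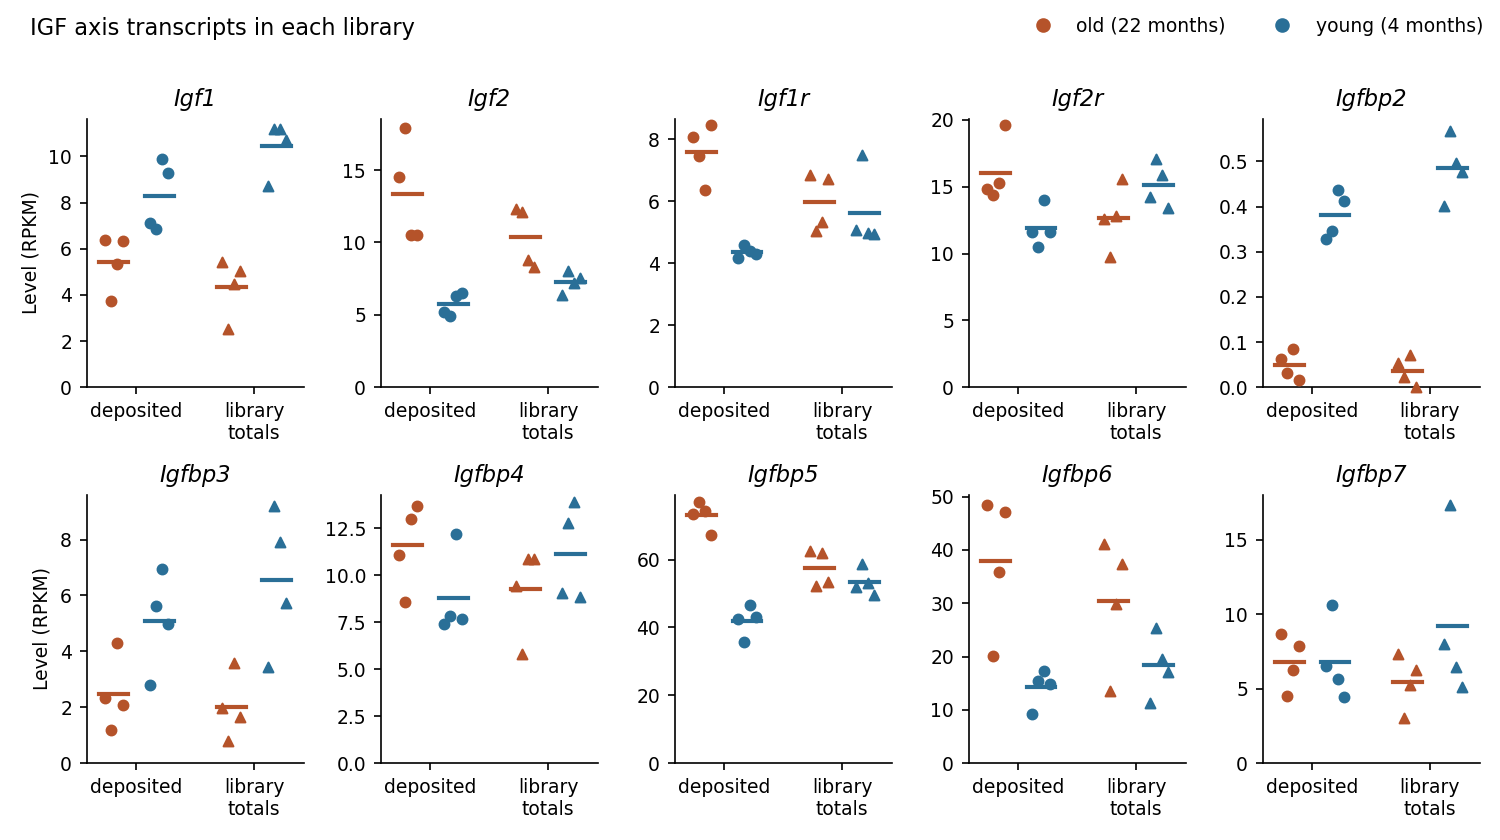
Level in RPKM (vertical axes, from 0) of each IGF axis gene in the 4 old and 4 young libraries, on both scales. Each point is 1 library and each bar the mean of its group. Old Igf1 points lie below all young points on both scales, and old Igfbp5 points lie above the young ones on the deposited scale only.

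Igf1 (chr10:87858265-87937042, + strand, GRCm38 as in GENCODE M21) had 6.38, 3.73, 5.35 and 6.33 RPKM in old libraries 1 to 4, against 7.12, 6.84, 9.90 and 9.27 RPKM in young libraries 1 to 4. All old libraries were below all young ones, with old library 2 lowest. Igf1 averaged 5.45 ± 1.24 RPKM in old cells and 8.28 ± 1.53 RPKM in young cells (SD, n = 4 each), from 3747 and 1777 reads in all. The log2 fold change was -0.53 ± 0.19 (SE) on the deposited scale, with limma adjusted p = 0.0171. On library totals the levels were 5.42, 2.53, 4.47 and 5.03 RPKM in old libraries, against 8.73, 11.2, 11.2 and 10.7 RPKM in young libraries. The log2 fold change was then -1.13 ± 0.19, with limma adjusted p = 0.00264. All 17 alternatives of processing or left-out libraries kept this call, between -1.33 and -0.94, with limma adjusted p up to 0.0183. The deposited call was lost without old library 2, at -0.39 with limma adjusted p = 0.0804, and without young library 4, at -0.48 with limma adjusted p = 0.0513. Relative to the median of all tested genes, Igf1 lay 1.17 log2 units lower in deposited values and 1.12 lower with library totals. The antisense gene Igf1os overlaps Igf1, and the library kit does not mark the strand. As a share of reads, endothelial marker transcripts were in sum lower in old cells too. Their summed level over 10 genes was 353, 202, 514 and 241 CPM (reads per M reads in genes) in old libraries, against 528, 625, 523 and 548 CPM in young libraries. The groups did not overlap in this sum, by the narrow gap between 514 CPM in old library 3 and 523 CPM in young library 3. Old library 3 was highest in it, then old libraries 1, 4 and 2, an order that Igfbp3 shared and Igf1 did not. Among young libraries the orders differed. Of the sum's 6 tested genes none was called by limma on library totals. The nearest were Cdh5, at -0.93 (limma adjusted p = 0.0537), and Pecam1, at -0.75 (limma adjusted p = 0.0581). Pecam1 encodes CD31, by which the sort removed endothelial cells. The part of endothelial RNA in the Igf1 and Igfbp3 differences was not tested.

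Igf2 (chr7:142650766-142666816, - strand) is an imprinted growth factor gene that is expressed mainly from the paternal allele and is abundant before birth. It had 14.5, 17.9, 10.5 and 10.5 RPKM in old libraries, against 5.18, 4.92, 6.31 and 6.53 RPKM in young libraries. All old values exceeded all young values, and old library 2, the lowest for Igf1, was the highest for Igf2. The means were 13.3 ± 3.56 RPKM in old cells and 5.73 ± 0.803 RPKM in young cells (SD, n = 4 each), with a log2 fold change of 1.07 ± 0.19 and limma adjusted p = 9.95e-05 on the deposited scale. On library totals Igf2 had 12.3, 12.1, 8.78 and 8.32 RPKM in old libraries, against 6.36, 8.04, 7.17 and 7.52 RPKM in young libraries. The groups stayed apart, by the narrow gap between 8.32 in old library 4 and 8.04 in young library 2, and the log2 fold change of 0.45 ± 0.15 had a limma adjusted p that rounded to the threshold of 0.05 and did not pass. It passed in 6 of 17 alternatives, among them leaving out old library 3 (adjusted p = 0.0446), old library 4 (0.0381) or young library 2 (0.0434), and also a pseudocount of 0.5, a filter at 1 RPKM and no filter. It reached limma adjusted p = 0.198 in the weakest. Igf2 shares its locus with Gm49394 on the same strand and with antisense Igf2os, listed at 0.0055 to 0.0222 RPKM in old libraries and 0.170 to 0.659 RPKM in young ones.

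The Igf1 to Igf2 ratio, which no library size enters, was 0.439, 0.209, 0.509 and 0.604 in old libraries, against 1.37, 1.39, 1.57 and 1.42 in young libraries. The old ratios did not overlap the young ones and all lay on the other side of 1. That side depends on the gene lengths used, 9904 bases for Igf1 and 5723 for Igf2. In reads not divided by length, old library 4 had 1036 for Igf1 and 991 for Igf2. Old libraries 1, 2 and 3 had fewer reads for Igf1 than for Igf2. The summed ligand RPKM was 20.9, 21.6, 15.9 and 16.8 in old libraries and 12.3, 11.8, 16.2 and 15.8 in young libraries, where the groups overlapped.

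**Figure D2:**
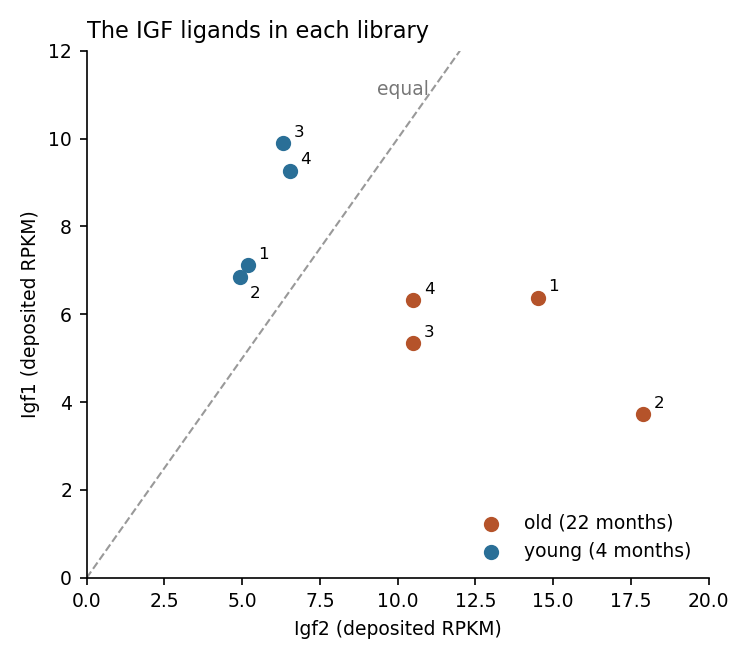
Igf1 against Igf2 in deposited RPKM, 1 point for each of the 4 old and 4 young libraries, with a dashed line of equal levels. Old libraries lie below the line, with Igf2 of 10.5 to 17.9 RPKM, and young libraries above it, with Igf2 of 4.92 to 6.53 RPKM.

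Igf1r (chr7:67952827-68233668, + strand), the signalling receptor for both ligands, had 8.05, 7.44, 6.37 and 8.44 RPKM in old libraries, against 4.15, 4.57, 4.38 and 4.29 RPKM in young libraries. The groups did not overlap on the deposited scale. Its log2 fold change there was 0.68 ± 0.17, with limma adjusted p = 0.00176, close to the median of 0.64 over all tested genes. On library totals Igf1r had 6.84, 5.04, 5.31 and 6.70 RPKM in old libraries, against 5.08, 7.48, 4.98 and 4.94 RPKM in young libraries, and young library 2 stood above all others. The groups overlapped, and the log2 fold change of 0.08 ± 0.17 did not pass (limma adjusted p = 0.745).

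Igf2r (chr17:12682406-12769664, - strand), the clearance receptor for IGF2, had 14.8, 14.4, 15.3 and 19.6 RPKM in old libraries, against 11.6, 10.5, 14.0 and 11.6 RPKM in young libraries. The values did not overlap, but the log2 fold change of 0.40 ± 0.18 missed the threshold on the deposited scale (limma adjusted p = 0.0529) and passed without young library 3, at 0.47 with limma adjusted p = 0.0355. On library totals the sign turned, at -0.25 ± 0.14 with limma adjusted p = 0.224. Airn, the antisense transcript that silences paternal Igf2r in mouse, overlaps it and had 10.1 to 13.5 RPKM in old libraries and 5.53 to 7.35 RPKM in young ones. The log2 fold change of Airn was 0.70 in deposited values (limma adjusted p = 0.00174) and 0.08 with library totals (adjusted p = 0.733). Its reads on Igf2r exons cannot be told apart without strand.

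Between the receptors, the Igf1r to Igf2r ratio was 0.477 ± 0.0637 in old libraries and 0.369 ± 0.0508 in young ones (SD, n = 4 each), and the groups overlapped. Set against Insr, the insulin receptor, Igf1r was 5.79, 7.62, 5.22 and 5.46 times as abundant per length in old libraries, against 3.04, 2.93, 3.65 and 2.72 times in young libraries, with no overlap. Insr itself had 1.28 ± 0.244 RPKM in old cells and 1.43 ± 0.177 RPKM in young cells on the deposited scale, below the level tested. The ratio does not show which of these genes differed. On library totals the Igf1r log2 fold change was 0.08 ± 0.17 (limma adjusted p = 0.745), and no Insr level is given there.

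Igfbp5 (chr1:72857932-72874884, - strand), a binding protein that attaches to extracellular matrix, was the most abundant of the 10 transcripts per length in every library. It had 73.5, 77.1, 74.3 and 67.2 RPKM in old libraries, against 42.4, 35.8, 46.6 and 43.0 RPKM in young libraries, from 30516 and 5293 reads in all. The groups did not overlap on the deposited scale, where the log2 fold change was 0.79 ± 0.20 with limma adjusted p = 0.00184. That was 0.15 above the median of all tested genes on this scale. On library totals it had 62.4, 52.3, 62.0 and 53.4 RPKM in old libraries, against 52.0, 58.6, 53.0 and 49.5 RPKM in young libraries. The groups then overlapped, and the log2 fold change of 0.11 ± 0.11 did not pass (limma adjusted p = 0.522).

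Igfbp6 (chr15:102144362-102149511, + strand), which prefers IGF2 over IGF1, had 48.4, 20.1, 35.8 and 47.1 RPKM in old libraries, against 9.26, 15.5, 17.3 and 14.8 RPKM in young libraries. Old library 2 lay close to the young values and the other old libraries well above them. The means were 37.8 ± 13.1 RPKM in old cells and 14.2 ± 3.46 RPKM in young cells (SD, n = 4 each), with a log2 fold change of 1.31 ± 0.25 and limma adjusted p = 0.000163 on the deposited scale. On library totals Igfbp6 had 41.1, 13.6, 29.9 and 37.4 RPKM in old libraries, against 11.3, 25.4, 19.6 and 17.1 RPKM in young libraries, from 2918 and 339 reads. Old library 2 lay among the young values there. The log2 fold change of 0.65 ± 0.32 did not pass (limma adjusted p = 0.158), and without old library 2 it was 0.98 with limma adjusted p = 0.0168. Tenocyte marker transcripts were higher in old cells on library totals, without the overlap that Igfbp6 had there. Over 8 genes they summed to 5630, 1870, 2750 and 4240 CPM in old libraries, against 1090, 1100, 1030 and 720 CPM in young ones. Limma called 7 of 7 tested higher on library totals, where 12.3% of all genes were called higher. Old library 1 was highest in the tenocyte sum, then old libraries 4, 3 and 2, an order that Igfbp6 shared with Igf1 and Igfbp7. Among young libraries the orders differed, with young library 1 lowest for Igfbp6 and young library 4 lowest in the sum. The part of such cells in the Igfbp6 level was not tested.

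Igfbp3 (chr11:7206086-7213923, - strand) is the main carrier of circulating IGFs. It had 2.32, 1.18, 4.30 and 2.07 RPKM in old libraries, against 2.80, 5.62, 6.95 and 4.97 RPKM in young libraries. Only old library 3 exceeded a young value, that of young library 1. Because its mean was under 5 RPKM, Igfbp3 was tested among the 11096 genes that averaged at least 1 RPKM, where 5.34% of genes were called lower in deposited values and 20.5% with library totals. It fell by 0.84 ± 0.27 on the deposited log2 scale (limma adjusted p = 0.0207) and by 1.35 ± 0.31 in the share of reads (limma adjusted p = 0.0117). On library totals all 16 alternatives kept the call, with log2 fold changes between -1.85 and -1.13. The deposited call was lost without old library 2 (limma adjusted p = 0.0721), old library 4 (0.0585), young library 2 (0.0776), young library 3 (0.0801) or young library 4 (0.0662). It rests on 550 reads in old libraries and 348 in young ones.

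Igfbp4 (chr11:99041244-99054392, + strand), an inhibitory binding protein that the protease PAPP-A cleaves, had 11.1, 8.59, 13.0 and 13.7 RPKM in old libraries, against 7.40, 7.82, 12.2 and 7.67 RPKM in young libraries. Young library 3 lay among the old values. Neither scale gave a call, with log2 fold changes of 0.37 ± 0.19 for deposited values (limma adjusted p = 0.0881) and -0.25 ± 0.20 for library totals (limma adjusted p = 0.386), which differ in sign. The deposited value passed without old library 2, at 0.50 with limma adjusted p = 0.0397, and without young library 3, at 0.53 with limma adjusted p = 0.0199.

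Igfbp7 (chr5:77349240-77408041, - strand), the low-affinity member, had 8.64, 4.52, 6.24 and 7.86 RPKM in old libraries, against 6.51, 10.6, 5.66 and 4.41 RPKM in young libraries. The ranges overlapped, and neither the deposited log2 fold change of 0.03 ± 0.22 (limma adjusted p = 0.907) nor -0.57 ± 0.32 with library totals (limma adjusted p = 0.213) passed. The signs differ between the scales. The gene Polr2b overlaps its end on the other strand.

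Igfbp2 (chr1:72824503-72852474, + strand), which lies beside Igfbp5 in the opposite orientation, had 2, 1, 3 and 0 reads in old libraries and 2, 2, 6 and 5 reads in young libraries. These counts are at or near the floor of 3 reads in a library, so no fold is given and no test was made. The deposited values were 0.0635, 0.0321, 0.0851 and 0.0161 RPKM in old libraries and 0.328, 0.346, 0.436 and 0.413 RPKM in young libraries, where a library without a read is listed at a small positive value. Igfbpl1, another very low gene of the family, showed the same order, with 0.0161 to 0.0365 RPKM in old libraries and 0.279 to 0.393 RPKM in young ones. Igfbp1 and Igfals, also very low, overlapped between the ages, Igfbp1 at 0.0192 to 0.0385 RPKM in old libraries and 0.0192 to 0.264 RPKM in young ones, and Igfals at 0.111 to 0.258 RPKM in old libraries and 0.217 to 0.430 RPKM in young ones. What the low-level signal of the young libraries contributes to these values was not tested.

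**Figure D3:**
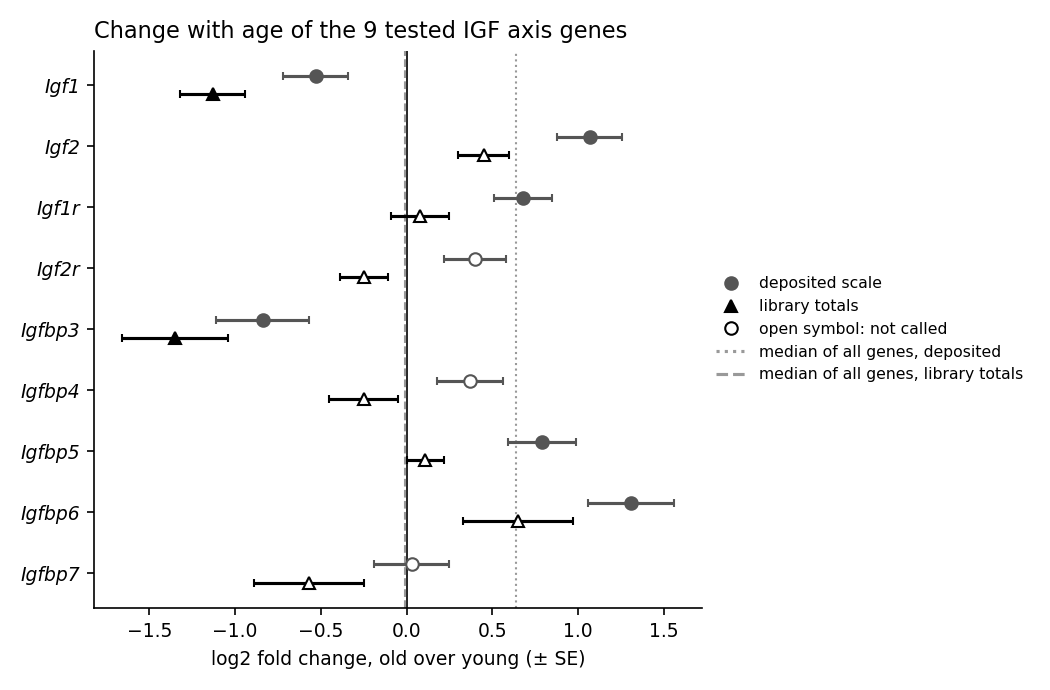
log2 fold change of old over young cells (horizontal axis, bars ± SE) for the 9 tested IGF axis genes on both scales, with filled symbols for limma adjusted p under 0.05 and a dotted and a dashed line at the medians of all tested genes (0.64 deposited, -0.01 library totals). Igfbp3 comes from the test of genes averaging at least 1 RPKM, whose medians, not drawn, were 0.36 deposited and -0.19 on library totals. Igf1 and Igfbp3 are filled on the negative side on both scales.

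Since RPKM ratios within a library are free of its size, the make-up of the binding proteins was also described as shares of their summed RPKM. A larger share of 1 binding protein lowers the shares of the others in that library. Igfbp5 made up 51.0, 69.2, 55.5 and 48.7% in old libraries and 61.7, 47.3, 52.3 and 57.1% in young libraries, and was the largest share throughout. Igfbp6 made up 33.6, 18.0, 26.8 and 34.1% in old libraries and 13.5, 20.5, 19.4 and 19.7% in young libraries. Old library 2 lay within the young range for Igfbp6 and the other 3 old libraries above it. Igfbp4 made up 7.70, 7.70, 9.74 and 9.95% in old libraries and 10.8, 10.3, 13.7 and 10.2% in young libraries. Every old share was thus below every young one, while Igfbp4 levels overlapped on both scales and were not called. Igfbp3 also separated, with 1.61, 1.05, 3.22 and 1.50% in old libraries and 4.08, 7.42, 7.80 and 6.61% in young libraries. Igfbp7 shares overlapped, at 5.10 ± 0.904% in old cells and 8.92 ± 3.73% in young cells (SD, n = 4 each). Igfbp2 shares separated too, at 0.0117 to 0.0636% in old libraries and 0.457 to 0.549% in young ones. They rest on 6 reads in old libraries and 15 in young ones. Per unit of Igfbp5, Igfbp3 stood at 0.0339 ± 0.0177 in old libraries and 0.122 ± 0.0413 in young ones, without overlap. The summed binding protein RPKM over the summed ligand RPKM was 7.17 ± 1.50 in old libraries and 5.57 ± 0.686 in young ones, and the groups overlapped.

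**Figure D4:**
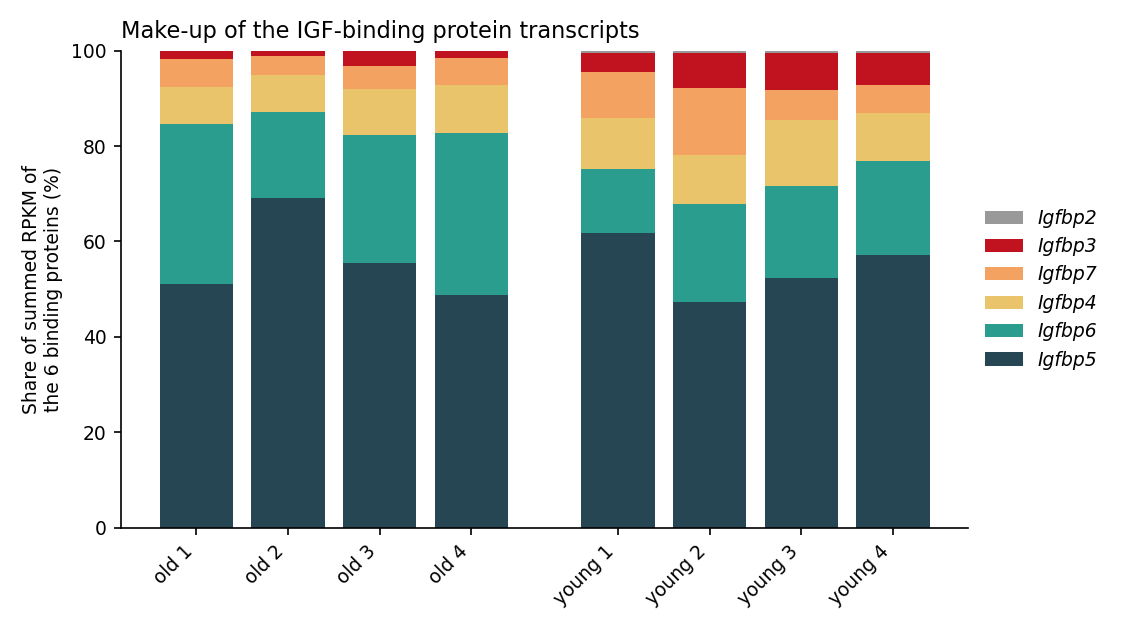
Share of each binding protein in the summed RPKM of the 6 (vertical axis, %), 1 stacked bar for each of the 4 old and 4 young libraries. Igfbp5 is the largest share in each bar, and Igfbp3 takes 1.05 to 3.22% in old libraries and 4.08 to 7.80% in young ones.

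A list of 65 other genes of the pathway was then counted, of which 24 averaged at least 5 RPKM. On library totals limma called 3 higher and 4 lower and left 17 uncalled, with a median log2 fold change of -0.17, where 12.3% of all genes were called higher and 12.5% lower. In deposited values it called 14 higher and left 10 uncalled, with a median of 0.46, where 68.1% of all genes were called higher. The counts of the list are thus near or under those of all genes. Eif4ebp1, the mTOR target that restrains cap-dependent translation, rose on both scales, by 1.30 ± 0.21 on the deposited log2 scale (limma adjusted p = 4.34e-05) and by 0.62 ± 0.14 on library totals (limma adjusted p = 0.011). It averaged 82.2 ± 17.8 RPKM in old cells and 32.4 ± 3.83 RPKM in young cells on the deposited scale, and leaving out any 1 library ended neither call. Akt2, the AKT isoform of insulin-stimulated glucose uptake, had 110 ± 17.2 RPKM in old cells and 53.4 ± 11.5 RPKM in young cells (SD, n = 4 each). It rose by 1.05 on the deposited log2 scale (limma adjusted p = 0.000509) and by 0.36 ± 0.11 in the share of reads (limma adjusted p = 0.0350), and 6 of 8 omissions of a library ended the second call, all but those of old library 1 and young library 1. Igf2bp2, which binds Igf2 mRNA, had 24.4, 34.4, 25.2 and 31.6 RPKM in old libraries, against 14.1, 8.61, 15.4 and 16.1 RPKM in young libraries. It rose by 1.06 ± 0.21 on the deposited log2 scale (limma adjusted p = 0.00023) and by 0.40 ± 0.12 in the share of reads (limma adjusted p = 0.0317), a second call that 5 of 8 omissions ended, with adjusted p up to 0.0896 without old library 4. Its level relative to Igf2 overlapped between the ages, at 2.25 ± 0.586 in old libraries and 2.34 ± 0.415 in young ones (SD, n = 4 each).

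Among the receptor adaptors, 6 of 12 were tested, and limma called 3 of them lower on library totals, where 12.5% of all genes were called lower. Gab1, a docking protein, was at -0.62 ± 0.16 in log2 units on library totals (limma adjusted p = 0.0149) and at -0.03 in the deposited values (adjusted p = 0.872). Sh2b1, an adaptor of the insulin and IGF1 receptors, was at -0.59 ± 0.16 on library totals (limma adjusted p = 0.0177), which was lost without young library 3 (limma adjusted p = 0.0555), and at -0.01 in the deposited values (adjusted p = 0.950). The remaining called adaptor was Grb10, named after its values were seen, at -0.41 ± 0.13 in the share of reads (limma adjusted p = 0.0371) and 0.27 in deposited values (adjusted p = 0.303), and 7 of 8 omissions of a library ended its call on library totals. None of the 3 was called in the deposited values.

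Of 7 proteases of the binding proteins and their inhibitors, 2 were tested. Htra3, a secreted serine protease, had 41.1, 29.2, 38.4 and 54.3 RPKM in old libraries, against 45.8, 33.6, 61.0 and 49.0 RPKM in young libraries. It was at -0.89 ± 0.20 on library totals (limma adjusted p = 0.00944), with no call lost to an omission, and at -0.22 on the deposited scale (limma adjusted p = 0.399). Pappa, the IGFBP4 protease, was below the level tested, at 0.408 ± 0.0774 RPKM in old cells and 0.553 ± 0.117 RPKM in young cells. Of the other groups, 2 of 5 related receptors, 4 of 13 genes of PI3 kinase and AKT signalling, 7 of 14 of the mTOR arm, 1 of 4 FOXO factors and 1 of 4 imprinted neighbours were tested. Of these, limma called Akt2 and Eif4ebp1 on library totals, both higher. H19, the maternally expressed neighbour of Igf2, had 2.06 ± 0.31 RPKM in old cells and 3.04 ± 0.577 RPKM in young cells and was not tested.

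**Figure D5:**
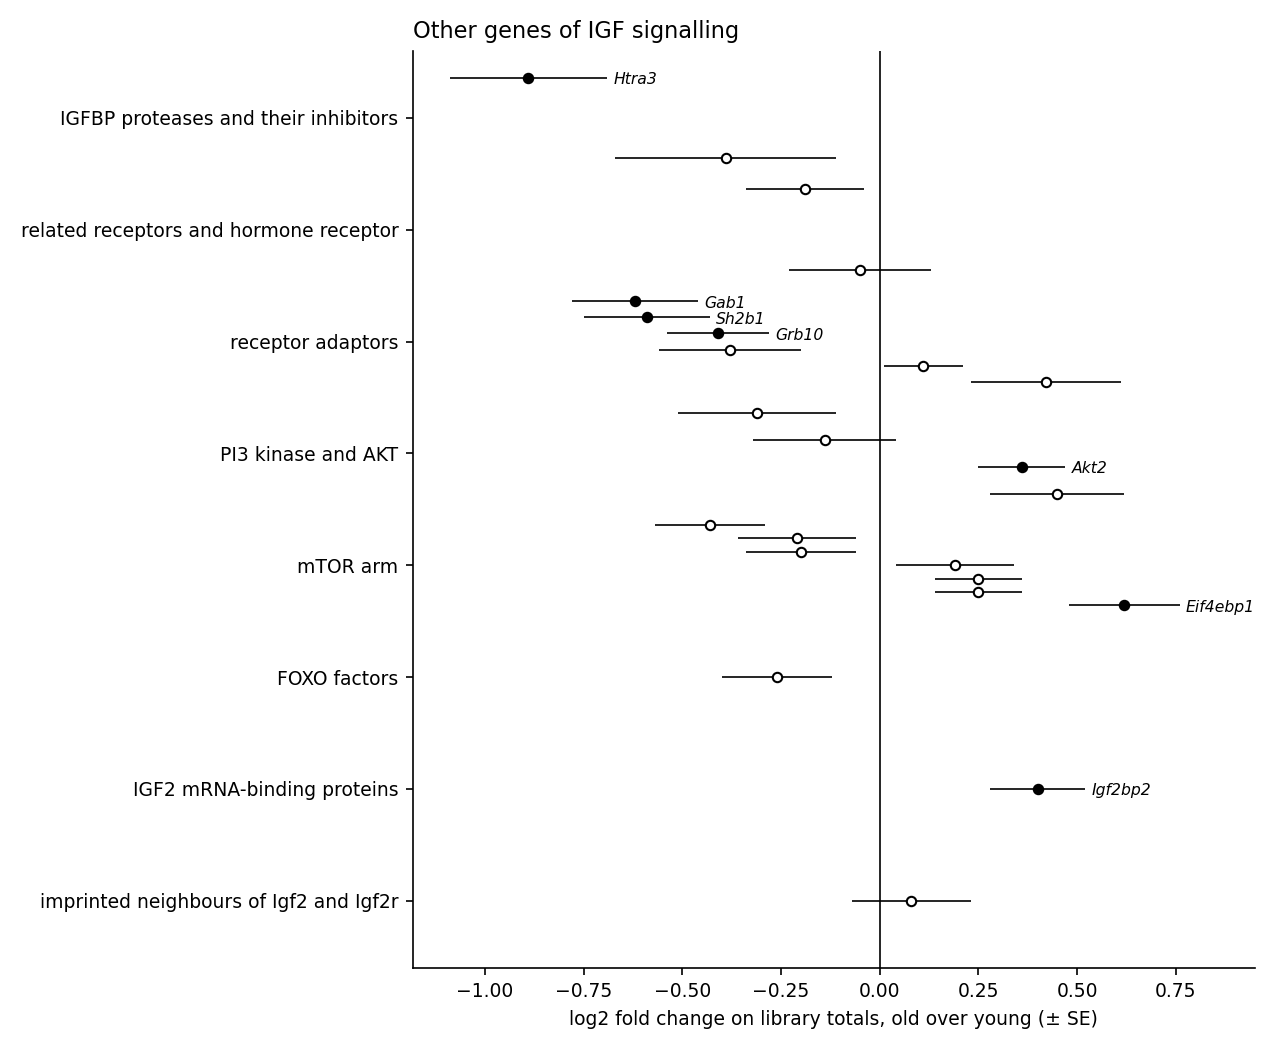
log2 fold change on library totals, old over young (horizontal axis, bars ± SE), for the 24 tested genes of the pathway list, in rows by group, with filled points for limma adjusted p under 0.05. Filled points to the right are Akt2, Eif4ebp1 and Igf2bp2, and those to the left are Htra3, Gab1, Sh2b1 and Grb10.

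Likeness of pattern was measured as Pearson's r over the 8 libraries on log2(RPKM + 1) of library totals, a description that shares libraries and depth. The genes most like Igf1 were Prxl2b (r = 0.986), R3hdm4 (r = 0.984) and Cdk2 (r = 0.982). On library totals Prxl2b averaged 5.61 ± 1.19 RPKM in old cells and 12.5 ± 1.42 RPKM in young cells (SD, n = 4 each). The genes most like Igfbp6 were Etv6 (r = 0.944), Trim25 (r = 0.941) and Aebp1 (r = 0.938), none of which was called on library totals.

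The sort was checked by its markers. Pax7, the defining factor of muscle stem cells, was present at 11.4 to 15.8 RPKM in old libraries and 9.71 to 19.9 RPKM in young ones. Pax7 was lower on library totals, at -0.68 in log2 units (limma adjusted p = 0.0166), and Vcam1, the sorted surface protein, higher, at 0.79 (limma adjusted p = 0.0162). Of the 12 stem cell markers, all tested, limma called 5 lower and 2 higher on library totals. On that scale 12.5% of all genes were called lower and 12.3% higher, which holds for each marker count below too. Calcr, Cdh15, Fgfr4 and Chodl were lower at -1.52, -0.86, -0.86 and -0.80, and Myod1 was higher at 0.78. The summed level of 12 stem cell markers was 11400 to 14700 CPM in old libraries and 11200 to 14300 CPM in young ones. Fibro-adipogenic markers summed to 4300 to 7260 CPM in old libraries and 5770 to 7530 CPM in young ones. Of 9 tested, limma called 2 higher on library totals, Fbln1 at 1.11 and Dcn at 0.86, and 2 lower, Col1a1 at -1.71 and Cd34 at -0.55. Pericyte markers summed to 474 to 1090 CPM in old libraries and 877 to 1110 CPM in young ones. Of these, 2 of 7 tested were called lower on library totals. Leukocyte markers summed to 59.0 to 201 CPM in old libraries and 137 to 356 CPM in young ones. No marker of these lists, nor of the tenocyte and endothelial ones, was at 0 reads over either age, and Ptprc, which encodes the CD45 used to remove leukocytes, had 0.0826 to 0.398 RPKM in old libraries and 0.678 to 1.80 RPKM in young ones. The part of such cells in the other IGF axis levels was not tested either. Old library 2 held the lowest old value for 6 of the 10 members on the deposited scale and for 8 on library totals.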

How the data were processed

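Messenger RNA of sorted muscle stem cells was sequenced in 8 libraries, 4 old and 4 young, from 1 animal each. The authors deposited 1 table of 24630 genes in RPKM. Per the submitters' processing notes, Trim Galore, STAR, featureCounts, Subread and edgeR were used with mm10 and GRCm38. Of their versions, settings and annotation the sources used here give nothing. Per the labels' protocols, cDNA was made with oligo(dT) priming by the SMARTer kit, which does not mark strand, and ERCC spike-in RNA was added by cell number. The spike-ins are not analysed here.

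For 100% of 23461 genes with a read, dividing the RPKM values by what 1 read is worth gave whole numbers, to within 0.03. The worth of a read was searched for in each gene to give whole numbers, so this is no separate check. Reads were thus recovered up to a common divisor over the libraries, which was undone for 215 genes by their annotated length. A small positive value stood in for zeros in 8294 genes. The implied length equalled the merged exons of GENCODE M21 for 81.2% of 23162 genes and for 9 of the 10 members, all but Igf2r, at 9438 against 9308 bases. The recovered reads gave the library totals used as the second scale. Recovery and fit were tested on simulated data, where recovery up to a common divisor was counted as right.

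Old and young were compared with limma 3.58.1 in R 4.3.3, as limma-trend on log2(RPKM + 1) over genes averaging at least 5 RPKM, with Benjamini-Hochberg adjustment over all genes tested and a threshold of 0.05. "Rose" and "fell" mean a call on both scales. Alternatives were filters at 1 and 10 RPKM and none, pseudocounts of 0.5 and 0.1, no trend, a replicate block, each library left out, young libraries 1 and 2 left out together, and, on library totals, limma-voom on recovered reads and reads thinned to equal totals. All 10 members are named. Pathway genes are named if called on both scales in 1 direction, or on library totals with a log2 fold change of at least 0.58 in size. 1 gene of the pathway list is not reported here. The members, lists and tests were chosen with earlier results of these data known.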

Additional observations from a re-analysis of the deposited data

Results flagged for a closer look

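Within each age, the highest or lowest of the 4 libraries was examined in 70 sets of values, among them member levels and shares. Of these sets, 4 had 1 library far from the rest, where chance gives about 1 in 20. Igf1r on library totals was 7.48 RPKM in young library 2, against 4.94 to 5.08 RPKM in the other young libraries. Deposited Igfbp4 was 12.2 RPKM in young library 3, against 7.40 to 7.82 RPKM in the others, and its share of the binding proteins there was 13.7%, against 10.2 to 10.8%. The Igfbp6 share was 13.5% in young library 1, against 19.4 to 20.5% in the others.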

How the results depend on the processing

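Of 294 values of 18 gene results under the alternatives, 270 kept their direction and their side of the threshold, 9 lost the call, 11 gained one and 4 turned sign. The 4 were the deposited Igfbp7 log2 fold change of 0.03, which was -0.08 without old library 1, -0.04 without old library 4, -0.03 without young library 3 and -0.13 without young library 4, with 0.24 the highest when 1 library was left out and 0.35 without young libraries 1 and 2. On the deposited scale, 64 genes were lower in old cells, and 592 were with a filter at 1 RPKM, 24 with one at 10 RPKM, 5988 with none, 122 without young libraries 1 and 2 and 44 to 129 with 1 library left out (129 without young library 2). The 3882 higher genes ranged from 3442 to 4048 with 1 library left out. On library totals the 712 lower genes were 2277 (filter at 1 RPKM), 384 (10 RPKM) and 8163 (none), and 476 to 800 with 1 library left out. The 700 higher genes were 453 without young libraries 1 and 2 and 475 to 793 with 1 left out. Igfbp3 on the deposited scale missed the threshold without young libraries 1 and 2 (-1.06, limma adjusted p = 0.0575) and without a filter (-0.84, 0.0722). The replicate numbers name different animals and did not pair them (correlations of deviations -0.157, -0.0630, 0.384 and -0.227, with the same number closest in 1 of 4 cases). A replicate block gave 3559 higher and 66 lower genes on the deposited scale and 634 and 654 on library totals. Igfbp2, Igfbp7, Igfbp6 and Igfbp3 had the fewest reads in young libraries, 15, 152, 339 and 348 in all.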
